A study of Mus musculus with 2 samples.

Results

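Genes that tell follicular B cells from plasma cells were compared between 2 pooled intestinal RNA libraries from the APCmin mouse, whose truncated Apc tumour suppressor gives rise to intestinal adenomas. The genes were taken by symbol from the deposited expression table. They were 7 genes of follicular B cells (Ms4a1, Cd22, Cd79a, Cd79b, Cr2, Fcer2a and Pax5) and 2 of plasma cells (Jchain and Sdc1), 9 of the 18919 genes in the table. The Setd2 KO pool (genotype APCmin; Setd2IEC-/-) lacked Setd2, a histone H3 lysine 36 methyltransferase, in the intestinal epithelium as the allele name is read here, and the control pool (genotype APCmin) kept it. All mice were C57BL/6, 2 months old and untreated, and each library was the mixed RNA of 3 littermates. FPKM is the authors' level per kilobase of transcript, scaled to the mapped fragments of the library. Each genotype had 1 library, and no difference below has a replicate check, a standard error or a p-value. Setd2 itself was at 3.47 FPKM in the KO pool and 6.87 FPKM in the control pool, from 254 and 513 expected counts, a ratio of 0.504 (95% counting interval 0.432 to 0.587). The cells that gave the remaining counts were not tested. The Cre driver, the stretch of intestine taken and whether Peyer's patches were kept are not given in the sources used here.

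B cells carry a surface immunoglobulin that signals through the CD79A and CD79B chains, and in the gut they gather in Peyer's patches and isolated lymphoid follicles. An activated B cell may become a plasma cell: the factor PRDM1 shuts off Pax5 and the surface programme, and the cell turns to secreting antibody. Plasma cells of the gut lie in the lamina propria and make IgA, which the J chain joins into dimers and the polymeric immunoglobulin receptor carries across the epithelium.

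The proximal promoters of 4 of these genes are shown because they frame the contrast: Fcer2a and Cd79a, a B cell gene with a low ratio and the one with the ratio nearest to 1, then Jchain and Sdc1. Each is the 250 bases before the RefSeq start (build GRCm38.p6, the patch series of mm10), written 5′ to 3′, with capitals for matches to 16 searched motifs.
Fcer2a (chr8:3694175-3694424, minus strand): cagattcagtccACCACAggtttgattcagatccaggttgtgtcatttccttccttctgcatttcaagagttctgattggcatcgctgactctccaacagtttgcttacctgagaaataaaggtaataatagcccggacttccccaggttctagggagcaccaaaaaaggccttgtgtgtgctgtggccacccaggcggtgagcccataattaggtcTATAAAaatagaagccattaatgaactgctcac
Cd79a (chr7:24897247-24897496, plus strand): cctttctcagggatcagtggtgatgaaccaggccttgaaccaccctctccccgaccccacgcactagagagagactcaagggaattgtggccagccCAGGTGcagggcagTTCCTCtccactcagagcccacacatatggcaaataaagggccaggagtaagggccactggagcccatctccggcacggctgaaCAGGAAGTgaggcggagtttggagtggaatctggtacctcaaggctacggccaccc
Jchain (chr5:88527898-88528147, minus strand): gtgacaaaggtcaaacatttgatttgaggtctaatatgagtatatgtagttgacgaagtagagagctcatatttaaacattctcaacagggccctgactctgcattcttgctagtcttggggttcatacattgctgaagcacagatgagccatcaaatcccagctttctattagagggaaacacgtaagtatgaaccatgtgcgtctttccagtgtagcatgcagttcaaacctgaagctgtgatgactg
Sdc1 (chr12:8771146-8771395, plus strand): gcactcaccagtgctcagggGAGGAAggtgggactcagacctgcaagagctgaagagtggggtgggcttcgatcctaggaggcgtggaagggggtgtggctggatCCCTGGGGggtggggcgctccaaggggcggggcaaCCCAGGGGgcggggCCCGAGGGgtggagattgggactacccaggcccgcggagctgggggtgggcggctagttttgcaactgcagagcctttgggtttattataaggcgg
In Fcer2a, of whose 3 listed starts the most upstream is shown, the capitals are a RUNX motif on the reverse strand at -238 and a TATA box at -33 from the start. In Cd79a they are an E box at -154 and, on the reverse strand, the short PU.1 motif at -140 and the second ETS motif at -56. Sdc1 holds the short PU.1 motif at -230 and the EBF core at -145, -110 and -96, and no capitals fall in the printed Jchain stretch.

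The promoter table covers 7 of the 9 genes; Ms4a1 and Cd79b are named only. The search covered the whole 300 bases (250 before and 50 after each start) on both strands. The E box CAGGTG, the letters that E proteins such as that of Tcf3 bind, was in 4 of the 5 B cell genes with a window (Cd22, Cd79a, Cr2 and Fcer2a) and in Jchain, where it starts 5 bases after the start site, against 20.2% of all 32851 windows. Fcer2a, with 3 windows, had more chances of a match, and its E boxes lie in a downstream window. The EBF core CCCNNGGG (13.7% of windows) was in Cd22 and Sdc1, and its form flanked by T and A (0.904%) in Cd22. The short PU.1 motif GAGGAA (28.3%) was in Cd79a and Sdc1, and the ETS motif ACTTCCTG (3.33%) in Cd79a. These 2 motifs are alike in part of their letters, but their matches in Cd79a lie apart, at -140 and -56. Both TATAAA (13.6%) and the RUNX motif TGTGGT (16.8%) were in Fcer2a. The other 9 matched no window of these genes: octamer ATGCAAAT (1.74%), GAGGAAGT (3.2%), CCGGAAGT (3.89%), the PRDM1 letters GAAAGTG (4.81%), GAAA repeated after NN (3.44%), CTAAAAATA (0.517%), the NF-kB site of the immunoglobulin kappa enhancer (0.155%), the XBP1 letters GACGTGG (2.42%) and GGAA followed by NN and GAAA (2.72%). The motifs describe letters and not binding, and the E box does not separate the B cell genes from Jchain.

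All 7 B cell genes had lower values in the Setd2 KO pool, and both plasma cell genes had higher values. Together the B cell genes held 331.03 expected counts in the KO pool against 688.28 in the control pool, which is a ratio of 0.490 with each pool scaled to its total (95% counting interval 0.429 to 0.560). Jchain held 13612 counts in the KO pool and 11346 in the control pool, a ratio of 1.22 (1.19 to 1.25). Intervals here cover counting error only, not variation between mice or pools. In bulk tissue, fewer cells of a type and less RNA per cell cannot be told apart.

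The signalling chains of the B cell receptor differed least. Cd79a (gene identifier 12518, mm10 chromosome 7, 24897497 to 24901858) was at 11.17 FPKM in the KO pool and 13.98 FPKM in the control pool, from 127 and 162 counts. The count ratio of Cd79a was 0.799 (0.628 to 1.01), so that a difference was not detectable at this depth. In human tissue, antibodies to CD79A stain plasma cells as well as B cells. Cd79b (chromosome 11, 106311341 to 106314562), its partner chain, was at 7.02 FPKM in the KO pool and 11.11 FPKM in the control pool, with 75 and 121 counts and a ratio of 0.632 (0.467 to 0.849).

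Surface receptors that tune this signal were lower by more. Ms4a1 (chromosome 19, 11249679 to 11266149) encodes CD20, a membrane protein of B cells that plasma cells lack, and was at 0.9 FPKM in the KO pool against 5.73 FPKM in the control pool. Its counts were 16 and 104, a ratio of 0.157 (0.0864 to 0.267), the lowest of the 9 genes. Cr2 (chromosome 1, 195136811 to 195176880), the complement receptor that lowers the threshold of B cells and that follicular dendritic cells also carry, was at 0.37 FPKM in the KO pool against 1.46 FPKM in the control pool. With 20 and 81 counts its ratio was 0.252 (0.146 to 0.414). Fcer2a (chromosome 8, 3680280 to 3694174), the low-affinity IgE receptor CD23 of mature follicular B cells, was at 0.94 FPKM in the KO pool and 3.13 FPKM in the control pool, from 17.22 and 59.57 expected counts. Its ratio was 0.295 (0.158 to 0.501). None of these 3 intervals ended above 0.501 after rounding.

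Cd22 (chromosome 7, 30865404 to 30880342), a lectin that restrains B cell receptor signalling, stood between these groups at 2.1 FPKM in the KO pool and 4.22 FPKM in the control pool. The ratio from its 72.81 and 150.71 counts was 0.492 (0.367 to 0.656). Pax5 (chromosome 4, 44524748 to 44710694), the transcription factor that holds B cell identity, was near the floor of detection at 0.29 FPKM in the KO pool and 0.95 FPKM in the control pool. It had 3 and 10 counts, and the interval of its ratio of 0.306 (0.0541 to 1.19) includes 1. Its direction is therefore not established by counting alone.

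**Figure D1:**
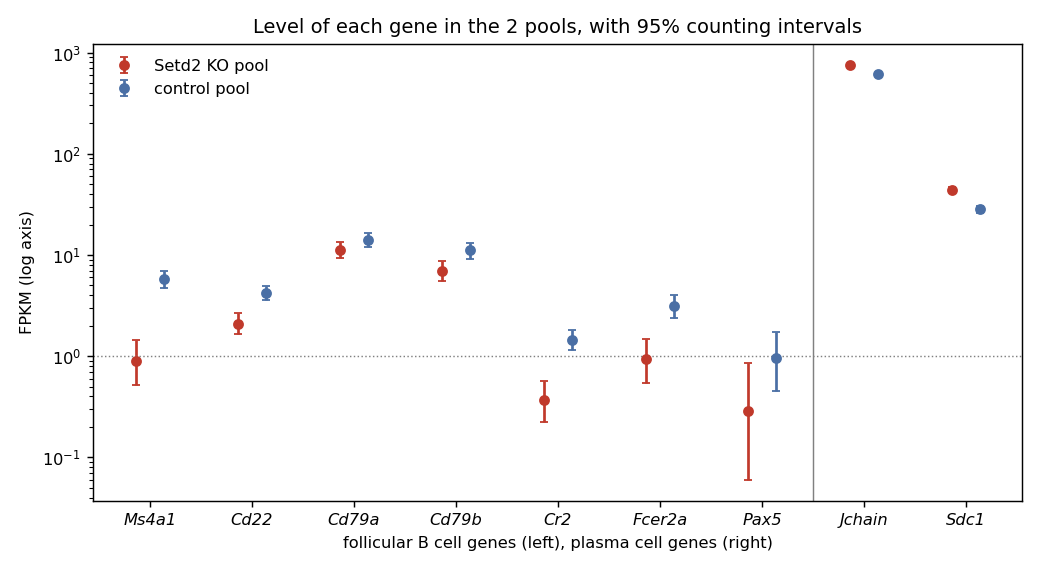
Level of each of the 9 genes in FPKM on a log axis, in the Setd2 KO pool (red, left) and the control pool (blue, right), with 95% exact Poisson counting intervals. Each B cell gene sits lower in the KO pool, from 0.9 against 5.73 FPKM for Ms4a1 to 11.17 against 13.98 FPKM for Cd79a, and Jchain and Sdc1 sit higher in it.

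Jchain (chromosome 5, 88519809 to 88527897) was the most abundant of the 9 genes, at 744.69 FPKM in the KO pool and 609.1 FPKM in the control pool. It encodes the joining chain of dimeric IgA, and its log2 ratio was 0.29. Sdc1 (chromosome 12, 8771396 to 8793716) was at 44.23 FPKM in the KO pool and 28.17 FPKM in the control pool, from 1177 and 764 counts, a ratio of 1.57 (1.43 to 1.72). Sdc1 encodes the heparan sulfate proteoglycan CD138, which marks plasma cells and is also made by epithelium. For every 100 Epcam counts, Epcam being a pan-epithelial adhesion gene, there were 8.56 Sdc1 counts in the KO pool and 6.12 in the control pool. For every 100 counts of Cdh1, another epithelial adhesion gene, there were 19.0 Sdc1 counts in the KO pool and 15.7 in the control pool, a ratio of 1.21 (1.10 to 1.34). The order turned against Krt18, a keratin with the highest ratio of the 8 epithelial genes listed, with 54.3 Sdc1 counts per 100 in the KO pool and 64.6 in the control pool. The share of Sdc1 that came from either cell type was not tested.

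A gene was called at least 2-fold lower or higher when the log2 ratio of KO over control, with 1 FPKM added to both, was -1 or less or 1 or more, and it was counted as measured when it reached 1 FPKM in at least 1 pool. Of the 7 B cell genes, 6 were measured, since Pax5 was not, and Ms4a1 (log2 ratio -1.82) and Fcer2a (-1.09) were called lower. Among all 13253 measured genes, 1.28% were called lower and 2.78% higher. Cr2 (-0.84), Cd22 (-0.75), Pax5 (-0.60), Cd79b (-0.59) and Cd79a (-0.30) were within 2-fold on this scale, which understates ratios of low genes. The median was -0.75 over all 7 and -0.80 over the 6 measured, beside 0.08 for all measured genes. Neither Jchain nor Sdc1 (0.63) was called.

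Judged by counts with no FPKM added, a rule chosen after seeing the data, 5 of the 7 B cell genes had a ratio of 0.5 or less: Ms4a1, Cr2, Fcer2a, Pax5 and Cd22. Of 14522 genes with at least 10 counts in the higher pool, 2.09% met that rule. The counting interval lay below 1 for 5 of the 7, all but Cd79a and Pax5, against 12.5% of the measured genes and 7.15% of the 4155 with 50 to 200 counts in the control pool, a band that holds every B cell gene but Pax5. It lay above 1 for Jchain and Sdc1, as it did for 28% of the measured genes, so the values of these plasma cell genes lie on the side where many genes lie.

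**Figure D2:**
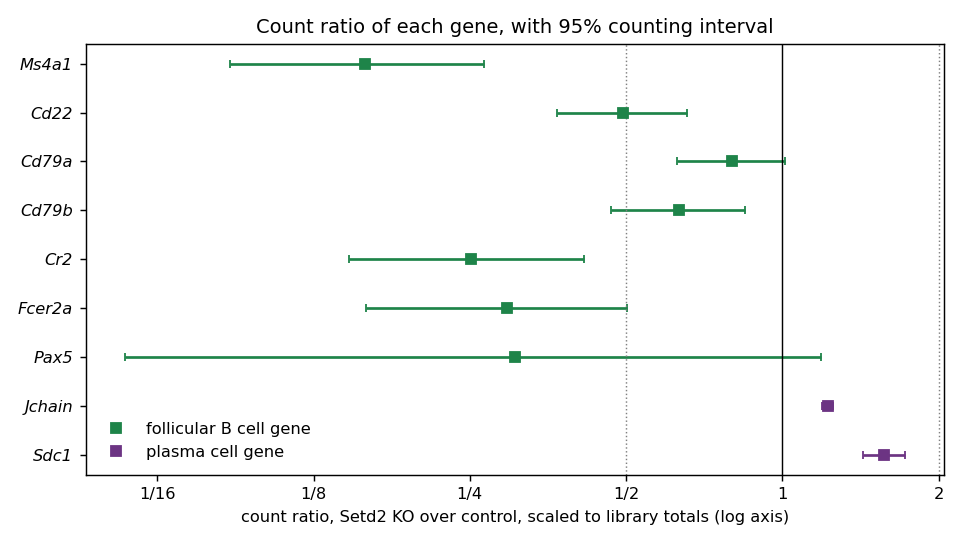
Count ratio of Setd2 KO over control for each gene on a log axis, with 95% exact counting intervals, the B cell genes in green and the plasma cell genes in purple; dotted lines mark 2-fold. The B cell ratios run from 0.157 (Ms4a1) to 0.799 (Cd79a), and the intervals of Jchain and Sdc1 lie above 1.

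The B cell genes differed among themselves. Each of the other 6 was set against Cd79a within each pool, so that library scaling drops out. Cd79a had the count ratio nearest to 1 of the 7 (0.799), so all ratios to it had to fall below 1. The intervals do not allow for that choice. Ms4a1 had 12.6 counts per 100 Cd79a counts in the KO pool and 64.2 in the control pool, a ratio of 0.196 (0.103 to 0.356). The ratios of Cr2 (0.315, 0.174 to 0.553), Fcer2a (0.361, 0.189 to 0.666) and Cd22 (0.617, 0.421 to 0.901) relative to Cd79a were also below 1 by their counting intervals. For Cd79b (0.791, 0.536 to 1.16) and Pax5 (0.383, 0.0665 to 1.53) the interval includes 1. In level per length, Cd79a and Cd79b led the B cell genes in both pools. Ms4a1 was the fifth of the 9 genes in the control pool, between Cd79b and Cd22, and came after Fcer2a (0.94 FPKM) in the KO pool. Neighbours whose counting intervals overlapped were Fcer2a, Ms4a1, Cr2 and Pax5 in the KO pool, each with the next. In the control pool they were Cd79a with Cd79b, Ms4a1 with Cd22, Cd22 with Fcer2a, and Cr2 with Pax5.

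The contrast of B cell with plasma cell genes was taken inside each pool. For every 100 Jchain counts the 7 B cell genes gave 2.43 counts in the KO pool and 6.06 in the control pool, a ratio of 0.401 (0.350 to 0.459). For every 100 Sdc1 counts they gave 28.1 in the KO pool and 90.1 in the control pool, a ratio of 0.312 (0.265 to 0.367). Set against Jchain one by one, the 7 genes had ratios from 0.128 (0.0706 to 0.218) for Ms4a1 to 0.653 (0.513 to 0.831) for Cd79a, and the interval of Pax5 reached 0.972. Without Cr2, which follicular dendritic cells share, the ratio of the sum to Jchain was 0.427 (0.370 to 0.492).

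Further genes of the B cell surface were lower in the same pool. Of 28 listed, 26 were measured. Of these, 3 were called lower and 0 higher, against 1.28% and 2.78% of all measured genes. A log2 ratio below 0 was found for 24 of the 26, against 37.2% of all measured genes. The list median was -0.53. For 16 the counting interval lay below 1, against 12.5% of all measured genes. The summed count ratio of the 28 was 0.762 (0.718 to 0.808). That is nearer to the 0.757 of the pan-leukocyte list below than to the 0.490 of the 7 B cell genes. Tnfrsf13c, the BAFF receptor that keeps mature B cells alive, was at 1.03 FPKM in the KO pool against 3.4 FPKM in the control pool. H2-Ob, a chain of the MHC class II modulator of B cells, was at 1.9 FPKM in the KO pool against 4.82 FPKM in the control pool. Blnk, an adaptor downstream of the receptor and the most abundant of the list, was at 18.84 FPKM in the KO pool and 16.16 FPKM in the control pool, with an interval of 0.995 to 1.37 for its ratio of 1.17. Cxcr5, the receptor that leads B cells into follicles, was chosen after its values were seen: it had 6 counts in the KO pool and 33 in the control pool, a ratio of 0.185 (0.0635 to 0.448).

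Transcription factors and germinal centre genes were within 2-fold, as were most measured genes (1.28% called lower and 2.78% higher). Of 12 listed B cell factors, 10 were measured and 0 were past 2-fold, with a median of -0.16. By counting intervals, 4 of the 10 lay below 1 and 2 above, against 12.5% and 28% of all measured genes. The summed count ratio of the 12 was 1.01 (0.963 to 1.06). Spib, an ETS factor of B cells and of M cells, had the lowest ratio, at 4.97 FPKM in the KO pool and 9.08 FPKM in the control pool. Tcf3 had the highest, at 24.09 FPKM in the KO pool and 17.72 FPKM in the control pool, and Irf8, also a macrophage factor and the most abundant, was at 42.77 FPKM in the KO pool against 32.24 FPKM in the control pool. Of 8 germinal centre genes 4 were measured and 0 were past 2-fold, with a median of 0.04. The death receptor Fas was at 10.02 FPKM in the KO pool and 12.58 FPKM in the control pool, and the receptor S1pr2 at 2.04 FPKM in the KO pool and 1.64 FPKM in the control pool.

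Other plasma cell genes had a median log2 ratio of 0.10, beside 0.08 for all measured genes, and spread to both sides of it. All 17 were measured and 0 were past 2-fold, against 1.28% of all measured genes called lower and 2.78% higher. Of the 17, 14 had a log2 ratio above 0 and 3 below, beside 37.2% of all measured genes below 0. The counting interval lay above 1 for 6 and below 1 for 1, against 28% and 12.5% of all measured genes. The summed count ratio was 1.15 (1.11 to 1.18). Creld2, a stress-induced protein of the endoplasmic reticulum, had the highest ratio, at 52.91 FPKM in the KO pool and 32.63 FPKM in the control pool. Ell2, an elongation factor that favours secretory immunoglobulin transcripts, had the lowest, at 12.07 FPKM in the KO pool and 24.68 FPKM in the control pool (count ratio 0.489, 0.431 to 0.552). Ssr4, a translocon subunit and the most abundant, was at 120.81 FPKM in the KO pool and 116.36 FPKM in the control pool. Many of these genes serve any secretory cell, so 2 that are closer to plasma cells were chosen after their values were seen. Mzb1, an IgA assembly chaperone, was at 26.34 FPKM in the KO pool and 24.48 FPKM in the control pool (ratio 1.08, 0.881 to 1.31), and Tnfrsf17, the plasma cell survival receptor BCMA, at 3.95 FPKM in the KO pool and 3.73 FPKM in the control pool (1.06, 0.594 to 1.89). This choice leaves out listed genes with ratios further from 1. Among them were Derl3 (1.46, 1.10 to 1.95), Eaf2 (1.63, 1.06 to 2.52) and Slamf7 (0.781, 0.575 to 1.06). The ratio of Jchain was not separable from that of Mzb1 by counting (1.14, 0.928 to 1.39). Immunoglobulin heavy and light chain genes were not analysed here.

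**Figure D3:**
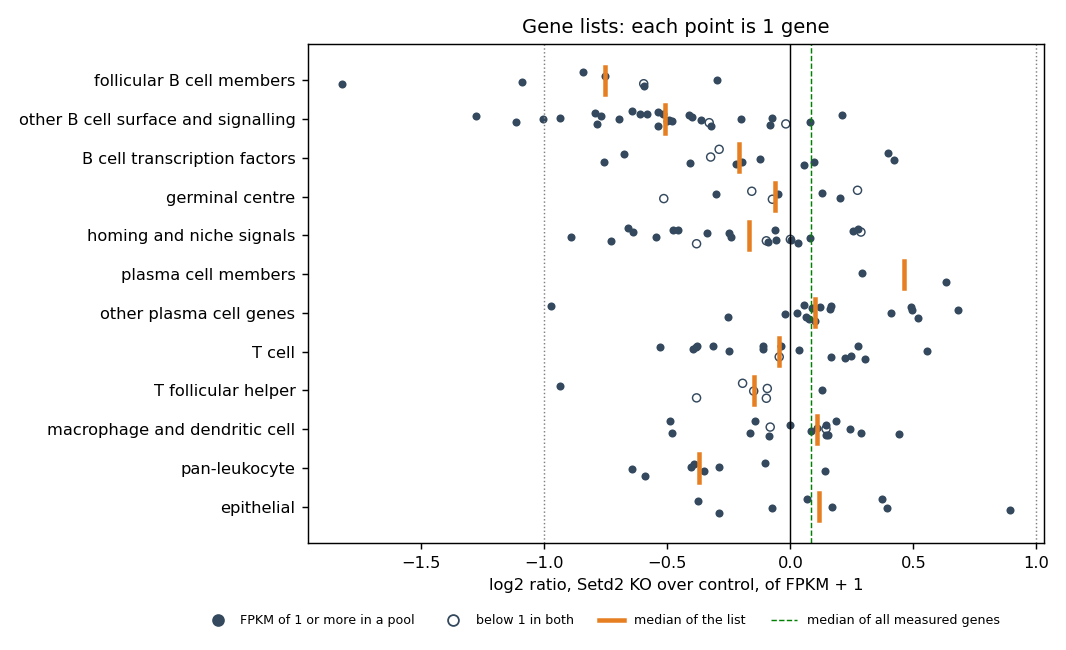
Log2 ratio of Setd2 KO over control (FPKM + 1) for every gene of 12 lists; filled points reached 1 FPKM in a pool, open points did not, and the orange bar is the median of all listed genes with a value. The B cell genes and the other B cell surface genes lie mostly left of 0, while other plasma cell genes lie on both sides of the median of all measured genes (0.08, dashed), from -0.97 to 0.68.

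Signals that place B cells and plasma cells were listed as well. Of 22 homing and niche genes, 18 were measured, with a median of -0.24. Past 2-fold were 0, against 1.28% of all measured genes called lower and 2.78% higher. Of the 18, 13 were below 0, against 37.2% of all measured genes. Their counting intervals lay below 1 for 9 and above 1 for 1, against 12.5% and 28% of all measured genes. Ltb, the lymphotoxin chain that builds lymphoid tissue, had the lowest ratio, at 4.91 FPKM in the KO pool and 9.95 FPKM in the control pool (count ratio 0.494, 0.341 to 0.706). Ccl28, a chemokine that draws IgA plasma cells to mucosa, had the highest, at 15.46 FPKM in the KO pool and 12.6 FPKM in the control pool. Pigr, the epithelial IgA transporter, was at 1421.66 FPKM in the KO pool and 1688.53 FPKM in the control pool. The follicle chemokine Cxcl13 (3.33 FPKM in the KO pool, 5.74 FPKM in the control pool) and the venule addressin Madcam1 (1.64 FPKM in the KO pool, 3.38 FPKM in the control pool) were picked with their values known.

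Among markers of follicular dendritic cells 5 of 6 were measured, and Clu alone was past 2-fold, at 195.18 FPKM in the KO pool and 35.79 FPKM in the control pool; epithelium also makes it. All 12 markers of follicle-associated epithelium and M cells were measured, with a median of 0.38. Among all measured genes 2.78% were called higher and 1.28% lower, and of these markers 0 were called lower and 3 higher. Those were Gp2, at 7.89 FPKM in the KO pool and 1.09 FPKM in the control pool, Marcksl1, at 26.07 FPKM in the KO pool and 6.67 FPKM in the control pool, and Scg5, at 2.95 FPKM in the KO pool and 0.84 FPKM in the control pool. Gp2 is also a gene of pancreatic acinar cells and Scg5 of endocrine cells. Pglyrp1, the most abundant, was at 73.39 FPKM in the KO pool and 58.55 FPKM in the control pool.

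Other leukocyte lists were set beside the B cell genes. The 17 T cell genes summed to 1434.76 counts in the KO pool and 1462.82 in the control pool, a ratio of 0.999 (0.929 to 1.08), with 0 of 16 measured genes past 2-fold. Their highest ratio was that of Cd247 (6.17 FPKM in the KO pool, 3.88 FPKM in the control pool), their lowest that of Lck (5.24 FPKM in the KO pool, 8 FPKM in the control pool), and Cd3g was the most abundant (13.80 FPKM in the KO pool, 13.43 FPKM in the control pool). For every 100 counts of the T cell list the B cell genes gave 23.1 in the KO pool and 47.0 in the control pool, a ratio of 0.490 (0.421 to 0.571). Macrophage and dendritic cell genes summed to a ratio of 0.981 (0.934 to 1.03), with 0 of 15 past 2-fold and ratios from Fcgr1 (0.71 FPKM in the KO pool, 1.4 FPKM in the control pool) to Cd68 (6.29 FPKM in the KO pool, 4.37 FPKM in the control pool). Lyz2, the most abundant, was at 76.97 FPKM in the KO pool and 107.73 FPKM in the control pool. Among all measured genes 1.28% were called lower and 2.78% higher. At those shares, 0 past 2-fold in lists of 16 and 15 genes is not a result about them.

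The 8 pan-leukocyte genes had a summed ratio of 0.757 (0.714 to 0.803) and 0 past 2-fold, from Arhgdib (11.46 FPKM in the KO pool, 18.48 FPKM in the control pool) to Cd48 (5.54 FPKM in the KO pool, 4.94 FPKM in the control pool), and Cd52 was at 35.78 FPKM in the KO pool against 54.46 FPKM in the control pool. Relative to that list the B cell genes had a ratio of 0.647 (0.559 to 0.749). By its name the list takes in B cells too, so this contrast is not like that with the T cell list. With 1.28% of all measured genes called lower and 2.78% higher, 0 past 2-fold among 8 genes is not a result about them. Of the T follicular helper list 2 of 7 genes were measured, Cxcr5 and Bcl6, and the summed ratio was 0.871 (0.703 to 1.07). With 1 library per genotype, whether these ratios differ beyond the spread between pools could not be tested.

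**Figure D4:**
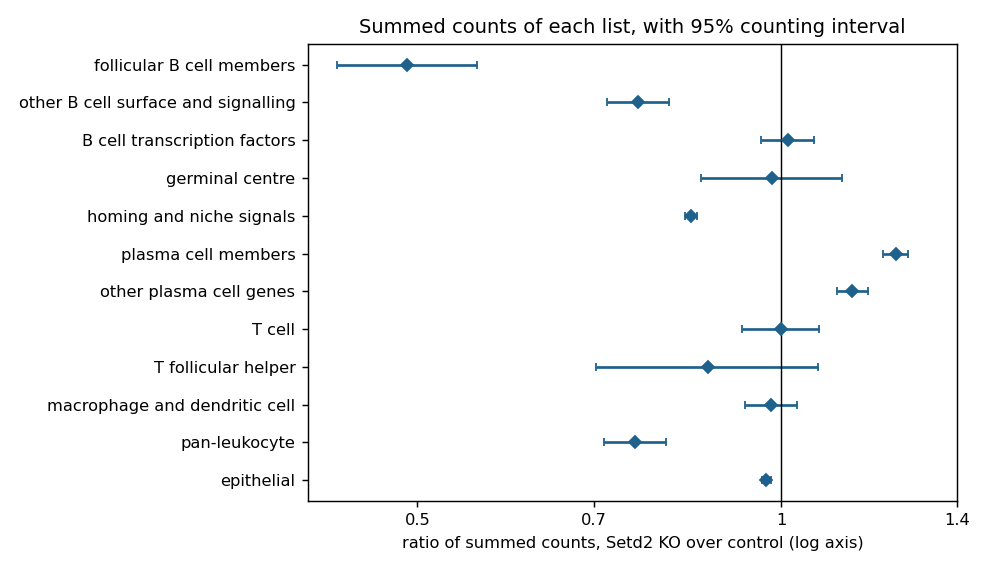
Ratio of summed expected counts, Setd2 KO over control and scaled to library totals, for the 12 B cell, plasma cell, homing, other leukocyte and epithelial lists on a log axis with 95% exact counting intervals. The B cell genes lie at 0.490, the T cell list at 0.999 and the plasma cell genes at 1.24; not drawn are the syndecan list and 5 lists with ratios above 1.24, those of follicular dendritic cells, follicle-associated epithelium, pancreas, stomach and blood.

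The genes with the pattern most like that of the B cell genes can be named only by 1 number, since there are 2 libraries. The 5 genes with at least 100 counts over both pools and a log2 ratio nearest to the B cell median of -0.75 were Rn28s1, Spib, Mgam, Lct and Ccdc114, the farthest of them 0.00721 away. Rn28s1 is a ribosomal RNA gene, and Mgam and Lct are disaccharidases of enterocytes. As many as 148 measured genes lay within 0.1 of that median, so the likeness singles out no gene.

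The libraries differed in other ways. The Setd2 KO library held 8646358 expected counts and the control library 8809678. All 12 exocrine pancreas genes were called higher in the KO pool, against 2.78% of all measured genes called higher and 1.28% called lower. Their summed level was 2628.03 FPKM in the KO pool and 66.39 FPKM in the control pool. Of 6 measured stomach genes 5 were called higher, with a sum over the list of 61.87 FPKM in the KO pool and 2.54 FPKM in the control pool, where Gkn2, Muc5ac and Gif were listed at 0. The 4 measured blood genes, all globins, were called higher, with a summed count ratio of 3.60 (3.19 to 4.07) over the list. Among 8 epithelial genes 0 were past 2-fold, and the summed ratio was 0.972 (0.964 to 0.981); their range ran from Krt20 (1173.74 FPKM in the KO pool, 1522.47 FPKM in the control pool) to Krt18 (180.43 FPKM in the KO pool, 96.61 FPKM in the control pool), and Krt8 was the most abundant (1820.62 FPKM in the KO pool, 1739.55 FPKM in the control pool). Among the other syndecans 0 of 3 were past 2-fold, with Sdc4 at 36.7 FPKM in the KO pool and 28.86 FPKM in the control pool and Sdc3 at 3.43 FPKM in the KO pool and 3.63 FPKM in the control pool. The part of these differences in tissue content in the B cell values was not tested. With pancreas, stomach and blood genes taken out of the totals, an alternative chosen after seeing the data, the summed B cell ratio was 0.492. These lists held 25502, 563 and 1230 of the 8646358 counts in the KO pool, so their removal could move the ratio only slightly. It does not bear on tissue content.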

How the data were processed

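Per the labels, total RNA from flash-frozen intestine was sequenced from 2 pools of 3 littermates each. Per the submitters' processing notes, the build was mm10 and the tools were BWA, Bowtie2 and RSEM; versions are not given in the sources used here. The deposited sample files list expected counts, which RSEM may divide among genes, and the authors' FPKM to 2 decimals, and the deposited series table repeats the FPKM. Counts were rounded for intervals only.

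From these, log2 ratios (pseudocount 1 FPKM) and ratios of counts scaled to library totals were computed with Python 3.11.15, numpy 2.4.6, pandas 2.3.3 and scipy 1.17.1. Intervals are 95% Clopper-Pearson intervals of the KO share of counts, exact Poisson intervals for levels and exact conditional intervals for ratios of ratios. Only the Clopper-Pearson intervals were tested on simulated data, which were drawn with counting error alone. The floor of 3 counts per library is 0.347 CPM in the KO pool and 0.341 CPM in the control pool. Reads without molecular identifiers are not independent molecules. Positions and symbols came from the RefSeq GRCm38.p6 table, which held 18871 of 18919 identifiers. Immunoglobulin chain genes were not analysed here.

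The 9 genes and the 18 gene lists (196 genes) were chosen with earlier results of these data known. Named from each list were its genes past 2-fold and the most abundant, or, with none past 2-fold, also those with the highest and lowest log2 ratio among measured genes. Others are named as chosen after their values were seen. Some listed genes are counted but not reported here singly. The 16 motifs were also picked after the expression values were known. Alternatives changed the pseudocount, the filter, the scaling and the genes summed.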

Additional observations from a re-analysis of the deposited data

How the results depend on the processing

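No paired analysis was possible because each genotype had 1 library, and for the same reason no replicate could be left out. In every alternative tried for the single genes, the 7 B cell genes had log2 ratios below 0 and Jchain and Sdc1 above 0. The number of B cell genes called lower was 2 as reported, with no filter and under median ratio scaling, 3 with a pseudocount of 0.1 FPKM or after rescaling to TPM, 1 with a filter of 5 FPKM, 0 with a pseudocount of 5 FPKM and 5 by count ratios with no pseudocount, a rule chosen after seeing the data. Their median, -0.80 over the 6 measured genes, was -1.30 with a pseudocount of 0.1 FPKM, -0.40 with 5 FPKM and -0.59 with a filter of 5 FPKM. The genes past 2-fold in either direction were 539 of all measured as reported, 981 and 156 with pseudocounts of 0.1 and 5 FPKM, 275 with a filter of 5 FPKM, 849 after rescaling to TPM and 1316 by count ratios with at least 10 counts. The summed B cell ratio was 0.562 in FPKM, the summed plasma cell ratio 1.18 under median ratio scaling, and the ratio of B cell genes to Jchain 0.459 in FPKM. A pseudocount pulls log2 ratios of low genes towards 0 by its construction, and a filter of 5 FPKM left 3 B cell genes; the cause of the other shifts was not tested. Counts of 3 to 20 in the KO pool for Pax5, Ms4a1, Fcer2a and Cr2 limit the precision of those ratios.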
